A study of Mus musculus with 8 samples.

Results

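The genes described here are 9 that encode the enzymes and close partners that write and erase cytosine methylation in mouse cells: Dnmt3a, Dnmt3b, Dnmt3l, Dnmt1, Uhrf1, Tet1, Tet2, Tet3 and Tdg. They were chosen by symbol, 1 row each, from a table of 48440 genes, and all 9 were expressed well enough to be tested among 17739 genes. RNA came from mouse embryonic stem cells of 129/Ola background, labelled as blastocyst-derived, in 4 groups of 2 libraries: β-catenin knock-out cells (CTNNB1-/-) with CHIR99021, knock-out cells with DMSO, parental cells (CTNNB1+/+) with CHIR99021 and parental cells with DMSO. CHIR99021, a small-molecule inhibitor of the kinase Gsk3 that stabilises β-catenin, was given at 3 μM and the vehicle DMSO at 0.3 μl/ml, each for 72 hours, to cells grown without feeders on gelatin in medium with serum. Each genotype is 1 cell line, so genotype and line cannot be told apart. Nothing in the labels says that the 2 libraries of a group came from separate cultures, and p-values therefore reflect library-to-library spread alone, some or all of it possibly technical.

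Methylation of cytosine in CG pairs is set by Dnmt3a and Dnmt3b, the de novo methyltransferases, and is copied onto the new DNA strand at replication by Dnmt1, which Uhrf1 brings to hemimethylated sites. Dnmt3l has no catalytic activity of its own and binds and stimulates Dnmt3a and Dnmt3b in embryonic stem cells and germ cells. Tet1, Tet2 and Tet3 are dioxygenases that oxidise methylated cytosine, and Tdg is a glycosylase that cuts out the most oxidised forms, after which base excision repair restores an unmethylated cytosine. Mouse embryonic stem cells are known for high levels of Tet1 and for DNA methylation that is high in serum and low when Gsk3 and Mek are both inhibited. All values below are RNA levels, and DNA methylation itself was not analysed here.

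The libraries held 23650572 to 27680649 estimated counts, and the 2 libraries of a group correlated at 0.987 to 0.989 (Pearson's r of log2 CPM, the counts scaled to a common library size). Ctnnb1, which encodes β-catenin, had 7.98 to 10.7 CPM in the 4 knock-out libraries and 813 to 906 CPM in the 4 parental libraries. Axin2, a feedback target of β-catenin signalling, had 2.88 and 2.82 CPM in knock-out cells with CHIR99021 and 5.18 and 4.84 CPM in knock-out cells with DMSO. In parental cells it had 42.5 and 41.5 CPM with CHIR99021 and 3.86 and 4.69 CPM with DMSO. The 8 pluripotent stem cell markers, Pou5f1 among them, were all detected and summed to 4874 to 5504 CPM in every library. With CHIR99021 in parental cells 5 of them were called lower and 1 higher, where 10.3% and 9.10% of all tested genes were. In knock-out cells 1 was lower, where 4.18% of all tested genes were. Utf1 had 97.8 and 88.3 CPM in parental cells with CHIR99021 and 169.8 and 171.5 CPM with DMSO, and Sox2 228.6 and 224.0 CPM against 305.3 and 285.4 CPM. Klf4 went the other way, with 279.4 and 281.3 CPM against 241.7 and 229.4 CPM. Esrrb had 746.4 and 750.2 CPM against 748.0 and 756.1 CPM. These genes were named after their values were seen, and the markers' part in the levels of the methylation genes was not tested. A fall in the level of a gene in such bulk RNA can come from fewer cells of a type or from less RNA per cell, which cannot be told apart.

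In knock-out cells CHIR99021 lowered 2 of the 9 genes, Dnmt3a and Dnmt3l, and raised none, where 7.06% of all tested genes were called against DMSO (4.18% lower). The number of members lowered and the number called over all genes, 1252 with every library, both depended on single libraries. Without knock-out DMSO library 1 the log2 fold change of Dnmt3l was -0.19. Without knock-out DMSO library 2 that of Dnmt3b was -0.23 and that of Uhrf1 -0.18. In parental cells 4 fell and 1 rose, where 19.4% of all tested genes were called (10.3% lower and 9.10% higher). There Dnmt3a, Dnmt3l, Tet1 and Tet3 were lower with CHIR99021 than with DMSO, and Dnmt3b was higher. Dnmt1, Uhrf1, Tet2 and Tdg did not pass the test in either line. The median log2 fold change over the 9 genes was -0.06 in knock-out and -0.06 in parental cells, beside medians of -0.003 and 0.004 over all tested genes.

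**Figure D1:**
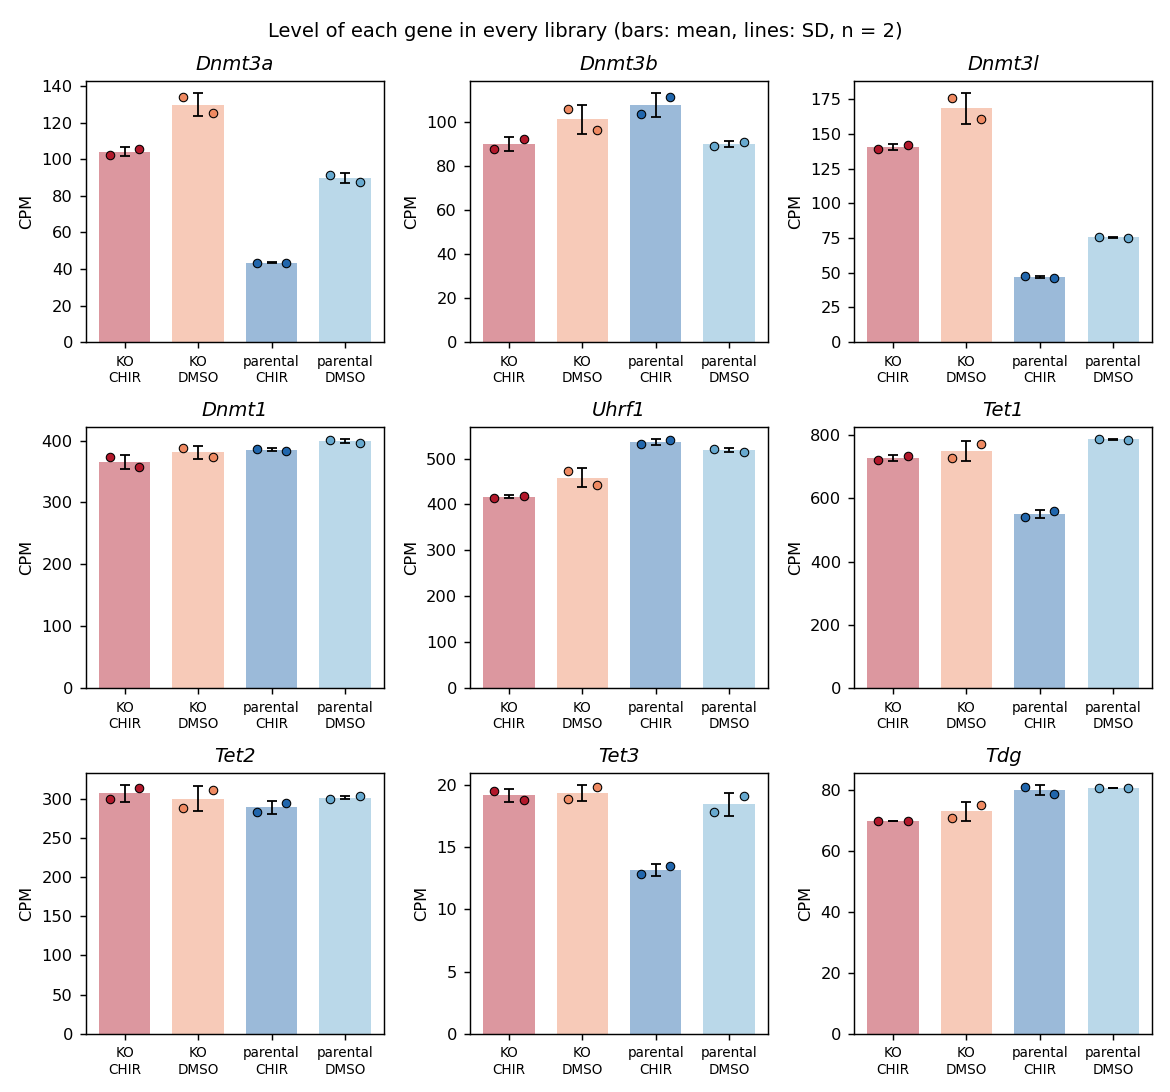
Level of each of the 9 genes in CPM (vertical axes, from 0) in the 8 libraries; points are libraries, bars are means and lines are SD (n = 2 per group). Dnmt3a, Dnmt3l, Tet1 and Tet3 have their lowest libraries in parental cells with CHIR99021, and Dnmt3l has its highest in the knock-out line, at 139 to 176 CPM.

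Dnmt3a, at chr12:3806007-3914443 on the plus strand of GRCm38, is a de novo methyltransferase that is made in a long form and in a shorter form from an internal promoter. It had 102 and 106 CPM in knock-out cells with CHIR99021, 134 and 125 CPM in knock-out cells with DMSO, 43.5 and 43.1 CPM in parental cells with CHIR99021, and 91.5 and 87.8 CPM in parental cells with DMSO. The groups did not overlap in any of the 4 comparisons, the lowest libraries being those of parental cells with CHIR99021 and the highest those of knock-out cells with DMSO. In knock-out cells the log2 fold change of CHIR99021 over DMSO was -0.32 ± 0.05 (SE, adjusted p = 0.0029). In parental cells it was -1.05 ± 0.05 (SE, adjusted p = 1.4e-07), to 0.483 of the DMSO level. The difference between both responses, the interaction of knock-out and CHIR99021, was 0.73 ± 0.07 (SE, adjusted p = 8.68e-05), where a positive value means a CHIR99021 response that is less negative in the knock-out.

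The knock-out line also carried more Dnmt3a RNA than the parental line. The excess was 1.26 ± 0.05 on the log2 scale (SE, 2.40-fold, adjusted p = 2.44e-08) with CHIR99021 and 0.53 ± 0.05 (SE, 1.45-fold, adjusted p = 0.000134) with DMSO. Each of the 4 Dnmt3a differences and the interaction kept its direction and its call under each alternative analysis run.

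Dnmt3l, at chr10:78041947-78063622 on the plus strand, is the partner of Dnmt3a and Dnmt3b that lacks catalytic activity. It had 139 and 142 CPM in knock-out cells with CHIR99021, 176 and 161 CPM in knock-out cells with DMSO, 47.7 and 46.5 CPM in parental cells with CHIR99021, and 75.8 and 75.2 CPM in parental cells with DMSO. All 4 knock-out libraries lay above all 4 parental libraries, and within each line the libraries with CHIR99021 lay below those with DMSO. The knock-out exceeded the parental line by 1.58 ± 0.05 on the log2 scale (SE, 2.99-fold, adjusted p = 6.21e-09) with CHIR99021 and by 1.16 ± 0.05 (SE, 2.23-fold, adjusted p = 9.44e-07) with DMSO.

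CHIR99021 changed Dnmt3l by -0.26 ± 0.05 (log2, SE, adjusted p = 0.0102) in knock-out cells and by -0.68 ± 0.05 (adjusted p = 5.05e-06) in parental cells, with an interaction of 0.42 ± 0.07 (adjusted p = 0.00437). The fall in knock-out cells no longer passed without knock-out DMSO library 1 (adjusted p = 0.0843), knock-out CHIR99021 library 1 (0.0896) or knock-out CHIR99021 library 2 (0.0685). Aire, a transcription factor gene on the opposite strand, overlaps Dnmt3l and had 97 to 379 counts per library, against 1112 to 4853 for Dnmt3l. Its log2 fold changes ran in the same direction: -1.01 ± 0.12 for CHIR99021 in parental cells and 0.72 ± 0.10 for knock-out against parental cells in DMSO (SE, adjusted p = 0.000103 and 0.00235). The libraries were made with a stranded kit, but the strand setting of the counting is not given in the sources used here, so reads of the overlap may have been shared between both genes.

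Dnmt3b, at chr2:153649450-153687730 on the plus strand, is the other de novo methyltransferase. It had 87.7 and 92.4 CPM in knock-out cells with CHIR99021, 106 and 96.7 CPM in knock-out cells with DMSO, 104 and 112 CPM in parental cells with CHIR99021, and 89.3 and 91.0 CPM in parental cells with DMSO. Here the libraries with CHIR99021 were the lower ones in knock-out cells and the higher ones in parental cells. The log2 fold change for CHIR99021 was -0.17 ± 0.05 (SE, adjusted p = 0.0914) in knock-out cells and 0.26 ± 0.06 (SE, adjusted p = 0.00743) in parental cells.

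The interaction of Dnmt3b was -0.43 ± 0.08 (SE, adjusted p = 0.00751) and passed under each alternative run. The rise in parental cells did not pass without parental DMSO library 1 (adjusted p = 0.056) or parental CHIR99021 library 2 (0.0714). The near-identical gene Dnmt3c had 1 to 6 counts per library and was not tested. These are estimated counts, so they do not give the number of reads that both genes could share.

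In the comparison of lines Dnmt3b was lower in the knock-out with CHIR99021, at -0.26 ± 0.05 (log2, SE, adjusted p = 0.00599). With DMSO its log2 fold change was 0.17 ± 0.06 (SE, adjusted p = 0.103). The first of these calls was lost without parental CHIR99021 library 2 (adjusted p = 0.0586) or knock-out CHIR99021 library 1 (0.0636). The second value passed when no low-count filter was used (0.042) and with a stricter filter (0.0453). Genes around Dnmt3b were themselves lower in the knock-out line: 158 tested genes within 5 Mb had a median log2 fold change of -0.27 with CHIR99021 and -0.19 with DMSO. Taken relative to those neighbours, Dnmt3b differed by 0.01 with CHIR99021 and by 0.36 with DMSO.

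The neighbours of Dnmt3b belong to a long stretch of chromosome 2. Beyond 100 Mb on that chromosome, 772 tested genes had a median of -0.19 in both comparisons of the lines, and each interval of 10 Mb from there on had a median between -0.22 and -0.16 in DMSO. Before that point the intervals lay between -0.05 and 0.05. Medians around the other 8 members lay between -0.10 and 0.03. The part of this stretch in the difference of Dnmt3b between the lines was not tested. In the CHIR99021 comparisons, made within a line, the same neighbours had medians of -0.05 in knock-out and 0.03 in parental cells.

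**Figure D2:**
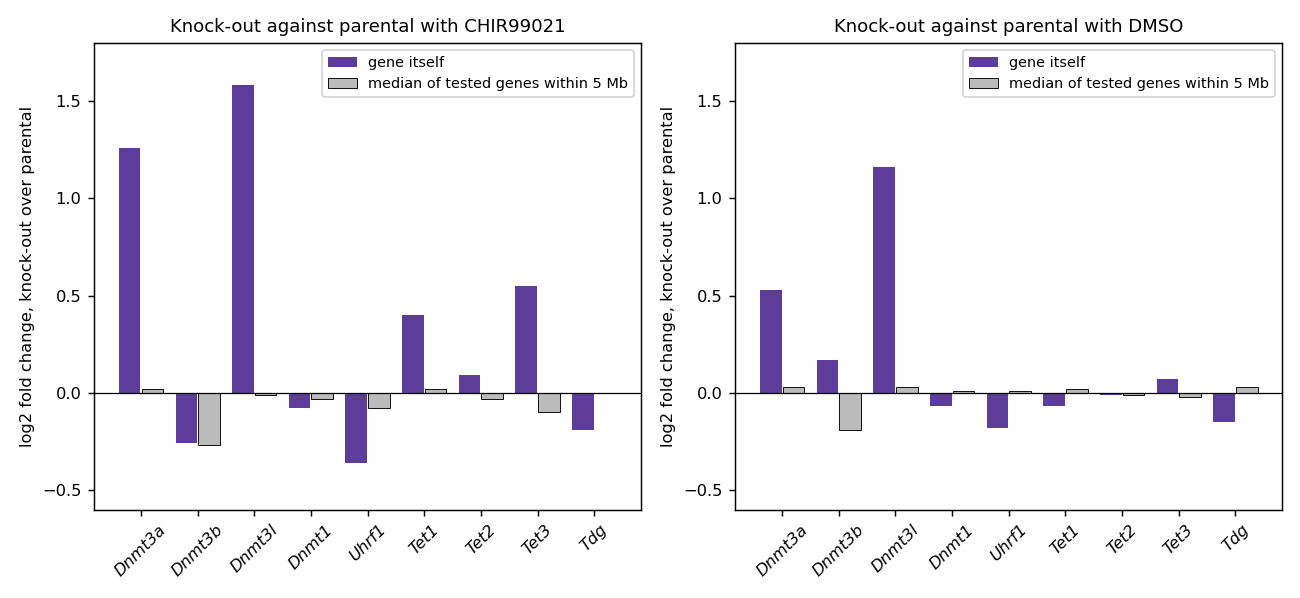
Log2 fold change of knock-out over parental cells (vertical axis) for each gene and, as grey bars, the median of the tested genes within 5 Mb of it, with CHIR99021 on the left and DMSO on the right. The grey bar of Dnmt3b stands at -0.27 and -0.19, and those of the other genes lie between -0.10 and 0.03.

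Ratios within a library compare the de novo genes without any scaling between libraries, on counts that are not corrected for length. Dnmt3b counts were 0.857 and 0.874 of the Dnmt3a counts in knock-out cells with CHIR99021, 0.789 and 0.772 in knock-out cells with DMSO, 2.39 and 2.59 in parental cells with CHIR99021, and 0.975 and 1.04 in parental cells with DMSO. Parental cells with CHIR99021 thus stood apart from the other 3 groups, with a log2 ratio of 1.31 ± 0.08 (SD, n = 2) against 0.01 ± 0.06 in parental cells with DMSO. In the knock-out line the log2 ratio was -0.21 ± 0.02 with CHIR99021 and -0.36 ± 0.02 with DMSO.

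The ratio of Dnmt3l to Dnmt3b separated the lines. Its log2 value was 0.64 ± 0.03 in knock-out cells with CHIR99021, 0.73 ± 0.00 in knock-out cells with DMSO, -1.19 ± 0.10 in parental cells with CHIR99021 and -0.26 ± 0.03 in parental cells with DMSO (SD, n = 2 each). Dnmt3l to Dnmt3a varied less, with log2 values of 0.44 ± 0.01, 0.37 ± 0.02, 0.12 ± 0.02 and -0.25 ± 0.04 in the same order of groups. No test was run on these ratios.

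**Figure D3:**
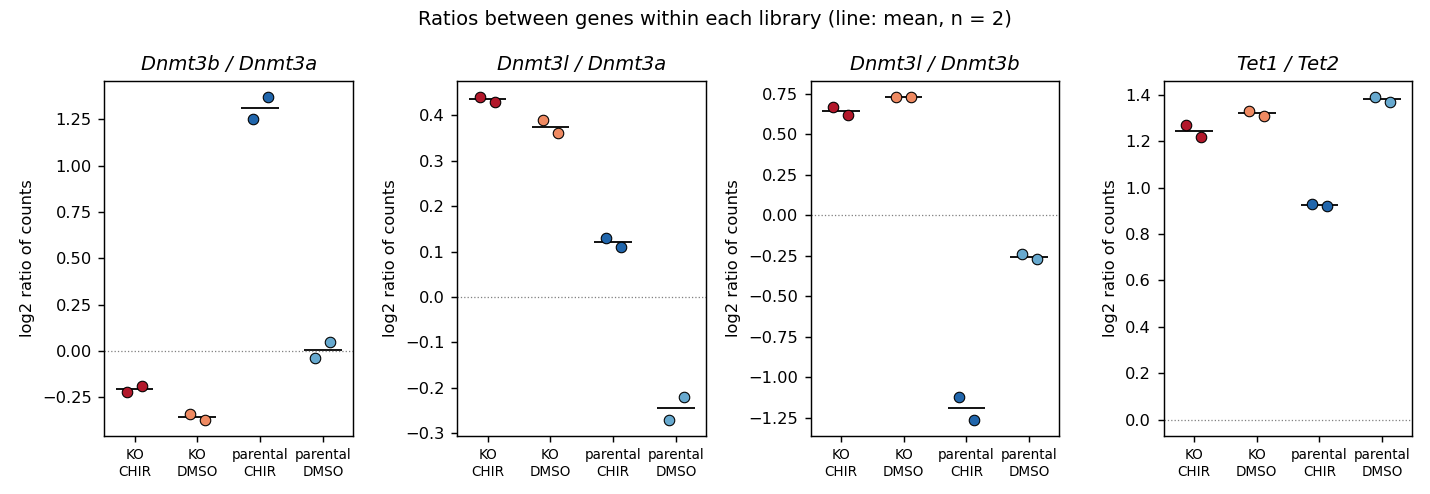
Log2 ratio of the counts of pairs of genes within each library (vertical axes); points are libraries and lines are means (n = 2 per group). Dnmt3b over Dnmt3a is near 1.31 in parental cells with CHIR99021 and at or below 0.05 in the other 6 libraries, and both Dnmt3l ratios are highest in the knock-out line.

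The promoters of the de novo genes are shown because with CHIR99021 in parental cells Dnmt3a and Dnmt3l fell while Dnmt3b rose, and the Tet1 promoter because Tet1 also fell there. In knock-out cells Dnmt3b had a log2 fold change of -0.17 with CHIR99021 and Tet1 one of -0.04, and neither passed the test. All 9 members had an entry in the RefSeq promoter table (build GRCm38.p6), with 16 start sites, each window running from 250 bases before to 50 after the start. Capitals mark matches on either strand to 3 short motifs: CTTTGA, the core bound by Tcf and Lef factors, GGGCGG, the GC box bound by Sp and Klf factors, and CACGTG, the E-box bound by Myc and related factors. Gene-level counts do not say which start site the cells used.
Dnmt3a, start site 3, chr12:3891494-3891793, plus strand: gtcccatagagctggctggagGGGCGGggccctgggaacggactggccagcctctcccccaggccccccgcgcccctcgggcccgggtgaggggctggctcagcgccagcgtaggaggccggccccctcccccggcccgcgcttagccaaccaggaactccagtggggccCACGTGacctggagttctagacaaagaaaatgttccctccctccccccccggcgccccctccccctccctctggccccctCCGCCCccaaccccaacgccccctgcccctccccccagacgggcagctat
Dnmt3b, chr2:153649199-153649498, plus strand: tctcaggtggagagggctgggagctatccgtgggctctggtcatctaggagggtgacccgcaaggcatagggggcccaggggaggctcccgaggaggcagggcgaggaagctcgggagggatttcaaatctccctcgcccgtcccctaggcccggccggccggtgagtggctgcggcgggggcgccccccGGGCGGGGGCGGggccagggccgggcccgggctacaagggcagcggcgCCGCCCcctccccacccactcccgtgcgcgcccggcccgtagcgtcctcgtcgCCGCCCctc
Dnmt3l, start site 1, chr10:78042037-78042336, plus strand: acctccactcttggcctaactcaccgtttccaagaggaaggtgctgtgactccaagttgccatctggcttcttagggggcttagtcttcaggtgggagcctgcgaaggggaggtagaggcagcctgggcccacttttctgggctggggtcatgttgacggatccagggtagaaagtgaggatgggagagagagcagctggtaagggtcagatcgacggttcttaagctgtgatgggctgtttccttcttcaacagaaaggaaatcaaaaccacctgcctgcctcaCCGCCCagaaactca
Dnmt3l, start site 2, chr10:78049592-78049891, plus strand: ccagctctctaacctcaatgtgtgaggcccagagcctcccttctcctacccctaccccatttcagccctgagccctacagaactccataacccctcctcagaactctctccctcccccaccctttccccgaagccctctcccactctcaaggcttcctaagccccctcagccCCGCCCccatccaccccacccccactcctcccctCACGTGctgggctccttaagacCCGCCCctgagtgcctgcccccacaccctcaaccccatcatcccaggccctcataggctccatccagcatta
Tet1, chr10:62887275-62887574, minus strand: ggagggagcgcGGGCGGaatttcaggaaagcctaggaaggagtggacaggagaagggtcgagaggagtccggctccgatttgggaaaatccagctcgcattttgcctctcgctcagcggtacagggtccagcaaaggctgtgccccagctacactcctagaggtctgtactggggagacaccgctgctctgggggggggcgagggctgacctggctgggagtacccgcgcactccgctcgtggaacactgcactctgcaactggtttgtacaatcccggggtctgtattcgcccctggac

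CTTTGA was in none of these 5 windows. Among the 16 windows of the members it stood only in start site 1 of Dnmt1, while 16.0% of 32544 distinct mouse promoters of this length hold it. GGGCGG was in each of the 5, as in 35.9% of all promoters, with 4 matches in Dnmt3b. The windows of Dnmt3a start sites 1 and 2, not printed here, held 6 and 7 matches. That of Dnmt3l start site 3, also not printed, held no match to any of the 3 motifs. CACGTG, in 7.2% of all promoters, was in the windows of Dnmt3a start site 3 and Dnmt3l start site 2, and also in that of Tdg. A missing match says only that these letters are not in the window.

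The windows also differ in CG pairs, the substrate of the enzymes themselves. The 3 Dnmt3l windows held 6, 4 and 3 CG pairs, beside a median of 7 over all promoters. The Dnmt3a windows held 46, 47 and 18, that of Dnmt3b 30 and that of Tet1 17. The most were in the Tet2 window, with 57.

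Maintenance methylation genes moved little with CHIR99021. Dnmt1, at chr9:20907209-20959888 on the minus strand, copies methylation after replication. It had 373 and 357 CPM in knock-out cells with CHIR99021, 388 and 374 CPM in knock-out cells with DMSO, 387 and 383 CPM in parental cells with CHIR99021, and 401 and 396 CPM in parental cells with DMSO. The 4 groups lay close together, and no comparison of Dnmt1 passed the test. Its log2 fold change for CHIR99021 was -0.06 ± 0.04 in knock-out cells (SE, adjusted p = 0.376) and -0.05 ± 0.04 in parental cells, with a 95% interval of -0.13 to 0.03 (adjusted p = 0.405).

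Uhrf1, at chr17:56303321-56323486 on the plus strand, recognises hemimethylated CG pairs and recruits Dnmt1. It had 415 and 419 CPM in knock-out cells with CHIR99021, 473 and 444 CPM in knock-out cells with DMSO, 532 and 541 CPM in parental cells with CHIR99021, and 522 and 515 CPM in parental cells with DMSO. Each knock-out library was below each parental library. The knock-out was lower, at -0.36 ± 0.04 on the log2 scale with CHIR99021 (SE, adjusted p = 6.41e-05) and at -0.18 ± 0.04 with DMSO (adjusted p = 0.021).

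The call in DMSO was lost when the 2 compared groups were fitted alone (adjusted p = 0.0514), and without parental DMSO library 1 (0.151), parental DMSO library 2 (0.101) or knock-out DMSO library 2 (0.0887). The call with CHIR99021 passed under each alternative run. CHIR99021 itself gave Uhrf1 log2 fold changes of -0.14 ± 0.04 in knock-out cells (SE, adjusted p = 0.0622) and 0.05 ± 0.04 in parental cells (adjusted p = 0.426), with an interaction of -0.19 ± 0.05 (adjusted p = 0.0761). In knock-out cells the value passed with DESeq2 (adjusted p = 0.026), with limma-voom (0.0497), with no filter (0.0145) and without knock-out DMSO library 2 (0.0222). The interaction passed with DESeq2 (0.043), with no filter (0.0387) and without that same library (0.0204).

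Of the 9 genes that work beside Dnmt1 and Uhrf1, 3 fell and none rose with CHIR99021 in parental cells, with a median log2 fold change of -0.15. This count and those of the following gene groups in that comparison stand beside 10.3% lower and 9.10% higher of all tested genes. They were Hells, a chromatin remodeller needed for normal methylation, at -0.25 ± 0.05 (SE, adjusted p = 0.00762), its partner Cdca7 at -0.19 ± 0.04 (0.00557), and Usp7, a deubiquitinase that binds Dnmt1 and Uhrf1, at -0.17 ± 0.04 (0.0135). The call of Hells was lost without parental DMSO library 1 (0.086) or parental CHIR99021 library 1 (0.083), and that of Usp7 without the same libraries (0.15 and 0.0894). In knock-out cells 1 of the 9 fell, where 4.18% of all tested genes were called lower. Against parental cells the knock-out had 2 lower and 1 higher with CHIR99021, and 2 lower with DMSO, Pcna being lower in both. Of all tested genes 12.5% were lower and 11.2% higher with CHIR99021, and 3.62% were lower with DMSO.

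Uhrf1 is known to peak around S phase, and the S phase genes also differed between the lines. Summed over 20 such genes, the level was 5498 and 5542 CPM in knock-out cells with CHIR99021, 6124 and 5950 CPM in knock-out cells with DMSO, 6289 and 6398 CPM in parental cells with CHIR99021, and 6474 and 6407 CPM in parental cells with DMSO. Against parental cells 14 of the 20 were lower in the knock-out with CHIR99021 and 4 with DMSO, none being higher, where 12.5% and 3.62% of all tested genes were called lower. The polymerase clamp Pcna was lower by -0.48 ± 0.04 and -0.35 ± 0.04 on the log2 scale (SE, adjusted p = 3.71e-06 and 0.00036), but it and Gins1 lie in the stretch of chromosome 2 described above. Without these genes 12 of the other 18 were lower with CHIR99021 and 2 with DMSO. Mki67, a proliferation marker, did not differ beyond the test between the lines, at -0.02 ± 0.04 with CHIR99021 and -0.12 ± 0.04 with DMSO (adjusted p = 0.7 and 0.0943). The part of S phase in the lower Uhrf1 was not tested.

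Tet1, at chr10:62804570-62908996 on the minus strand, is the main Tet enzyme of embryonic stem cells. It had 722 and 735 CPM in knock-out cells with CHIR99021, 728 and 771 CPM in knock-out cells with DMSO, 542 and 559 CPM in parental cells with CHIR99021, and 787 and 786 CPM in parental cells with DMSO. Parental cells with CHIR99021 were the low group, and the other 6 libraries lay between 722 and 787 CPM. The log2 fold change for CHIR99021 was -0.04 ± 0.04 (SE, adjusted p = 0.568) in knock-out cells and -0.51 ± 0.04 (adjusted p = 3.78e-06) in parental cells, and the interaction was 0.47 ± 0.05 (adjusted p = 0.000357). Knock-out against parental cells gave 0.40 ± 0.04 (adjusted p = 2.47e-05) with CHIR99021 and -0.07 ± 0.04 (adjusted p = 0.338) with DMSO. The 3 calls passed under each alternative run.

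Tet3, at chr6:83362373-83459084 on the minus strand, is the Tet enzyme of the oocyte and of later differentiation, and was the lowest of the 9. It had 19.5 and 18.8 CPM in knock-out cells with CHIR99021, 18.9 and 19.8 CPM in knock-out cells with DMSO, 12.8 and 13.5 CPM in parental cells with CHIR99021, and a mean of 18.5 ± 0.928 CPM in parental cells with DMSO (SD, n = 2). As with Tet1, parental cells with CHIR99021 were the low group. For Tet3 the other 3 groups overlapped. The log2 fold change for CHIR99021 was -0.01 ± 0.07 in knock-out cells, with a 95% interval of -0.17 to 0.14 (SE, adjusted p = 0.936), and -0.49 ± 0.07 in parental cells (adjusted p = 0.000753).

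With CHIR99021 the knock-out exceeded parental cells in Tet3 by 0.55 ± 0.07 (log2, SE, adjusted p = 0.000309), and the value with DMSO was 0.07 ± 0.07 (adjusted p = 0.664). The interaction of Tet3 was 0.48 ± 0.10 (adjusted p = 0.0181). It was lost with DESeq2 (0.143) and without parental DMSO library 2 (0.0806), parental CHIR99021 library 1 (0.0947), knock-out DMSO library 1 (0.0755) or knock-out CHIR99021 library 1 (0.068).

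Tet2, at chr3:133463679-133545139 on the minus strand, is the Tet enzyme that acts mostly in gene bodies and enhancers of these cells. It had 300 and 315 CPM in knock-out cells with CHIR99021, 289 and 312 CPM in knock-out cells with DMSO, 284 and 295 CPM in parental cells with CHIR99021, and 300.0 and 303 CPM in parental cells with DMSO. The groups lay within a narrow range and no comparison of Tet2 passed the test, the log2 fold change for CHIR99021 being 0.03 ± 0.05 in knock-out cells (SE, adjusted p = 0.734) and -0.06 ± 0.05 in parental cells (adjusted p = 0.407). Within a library Tet1 counts were 2.41 and 2.34 times those of Tet2 in knock-out cells with CHIR99021, 2.52 and 2.48 times in knock-out cells with DMSO, 1.91 and 1.89 times in parental cells with CHIR99021, and 2.62 and 2.59 times in parental cells with DMSO. The balance of both genes thus shifted with CHIR99021 by -0.07 on the log2 scale in knock-out cells and by -0.45 in parental cells.

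Tdg, at chr10:82629828-82650799 on the plus strand, had 70.0 and 69.9 CPM in knock-out cells with CHIR99021, 70.9 and 75.1 CPM in knock-out cells with DMSO, 81.2 and 78.9 CPM in parental cells with CHIR99021, and 80.8 and 80.7 CPM in parental cells with DMSO. Each knock-out library lay below each parental library. The log2 fold change of knock-out over parental cells was -0.19 ± 0.05 (SE, adjusted p = 0.0096) with CHIR99021 and -0.15 ± 0.05 (adjusted p = 0.0881) with DMSO. The first call was lost without parental CHIR99021 library 1 (0.074), knock-out CHIR99021 library 1 (0.0577) or knock-out CHIR99021 library 2 (0.0745). CHIR99021 gave -0.06 ± 0.05 in knock-out and -0.01 ± 0.05 in parental cells (adjusted p = 0.457 and 0.887).

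Across the lines 7 of the 9 members passed with CHIR99021, 4 higher and 3 lower in the knock-out, where 23.7% of all tested genes were called (11.2% higher and 12.5% lower). With DMSO 3 passed, 2 higher and 1 lower, where 6.75% were called (3.13% higher and 3.62% lower). The interaction passed for 5, 4 of them positive, where 6.13% of all tested genes were called (3.22% higher and 2.91% lower). These comparisons share groups of libraries: parental cells with CHIR99021 enter the parental response, the comparison of lines with CHIR99021 and the interaction, so their values are not separate observations.

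**Figure D4:**
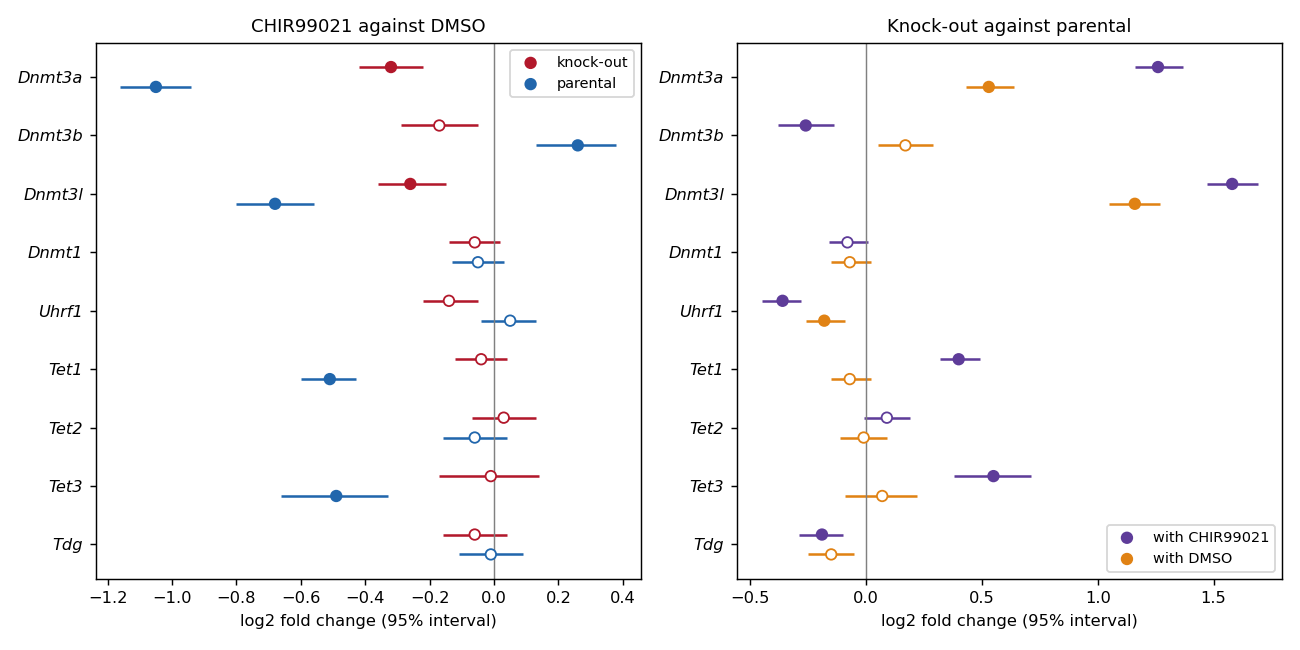
Log2 fold change (horizontal axis) of the 9 genes, with 95% intervals as lines; filled points have an adjusted p under 0.05. Left, CHIR99021 against DMSO in knock-out and in parental cells, with Dnmt3a at -0.32 and -1.05; right, knock-out against parental cells with CHIR99021 and with DMSO, with Dnmt3l at 1.58 and 1.16.

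For the order of all 9 genes, levels were expressed as CPM per kb of merged exons, unlike the ratios of counts above, whose changes between groups and not their size can be read. In parental cells with DMSO the order was Uhrf1 at 121.7 ± 1.16, Dnmt1 at 54.1 ± 0.443, Tet1 at 50.9 ± 0.0369 and Dnmt3l at 25.3 ± 0.129 CPM per kb (SD, n = 2 each). Tet2 at 17.9 ± 0.137 and Dnmt3b at 17.6 ± 0.236 did not differ beyond their spread, and Tdg at 15.0 ± 0.0118, Dnmt3a at 5.39 ± 0.158 and Tet3 at 1.11 ± 0.0556 followed. In knock-out cells with DMSO Dnmt3l, at 56.3 ± 3.62 CPM per kb, reached the range of Dnmt1 at 51.6 ± 1.39 and Tet1 at 48.5 ± 1.95. In parental cells with CHIR99021 Dnmt3l was at 15.8 ± 0.292, between Tet2 at 17.1 ± 0.486 and Tdg at 14.9 ± 0.310. Scaled by the longest transcript instead, Uhrf1 stayed first and Dnmt3a and Tet3 last in each group, while the places of the other 6 depended on the length used in at least 1 group. On that scale Dnmt3l in knock-out cells with DMSO, at 92.4 ± 5.93 CPM per kb, lay above Dnmt1 at 64.9 ± 1.74 and Tet1 at 52.2 ± 2.10.

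Over the 8 libraries the log2 levels of Dnmt3a correlated with those of Tet3 (Pearson's r = 0.95), Dnmt3l (0.94) and Tet1 (0.88), and those of Tet1 with Tet3 (0.95). Dnmt3b and Tet1 gave -0.73, Dnmt3a and Dnmt3b -0.51 and Dnmt3l and Uhrf1 -0.85. These values describe 8 libraries in 4 groups, so they carry mainly the group differences given above. Among 7013 tested genes with a mean of at least 20 CPM, the genes most like Dnmt3a were Calcoco2 (0.999), Col18a1 (0.995) and Gli1 (0.995). The most like Dnmt3l were Pea15a (0.996) and the type IV collagen genes Col4a2 (0.991) and Col4a1 (0.988), and the most like Tet1 were Zfp512b (0.993), Tjp1 (0.991) and Sfrp1 (0.990). For Dnmt3b, Arl2bp led at 0.962.

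Among 14 tested factors linked to where de novo methylation is set, 5 were lower and 2 higher with CHIR99021 in parental cells. Their median log2 fold change was -0.11, beside 0.004 over all genes. The list joins factors with different roles, repressors of the de novo genes among them, so these counts give no direction for methylation itself. Prdm14, a repressor of Dnmt3b and Dnmt3l in mouse embryonic stem cells, had 20.9 and 21.2 CPM in knock-out cells with CHIR99021, 29.4 and 28.1 CPM in knock-out cells with DMSO, 18.2 and 19.6 CPM in parental cells with CHIR99021, and 33.1 and 35.9 CPM in parental cells with DMSO. It was thus lower with CHIR99021 than with DMSO in both lines. The log2 fold changes were -0.45 ± 0.07 in knock-out cells (SE, adjusted p = 0.00347) and -0.87 ± 0.07 in parental cells (adjusted p = 5.93e-06). The interaction of Prdm14 was 0.42 ± 0.10 (adjusted p = 0.0262), and knock-out against parental cells in DMSO gave -0.26 ± 0.07 (adjusted p = 0.037). Both of these calls were lost with DESeq2 (0.123 and 0.157) and in several fits without 1 library.

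The zinc finger repressor Rest fell by 0.59 ± 0.04 on the log2 scale in parental cells (adjusted p = 7.28e-07), Trim28, the corepressor of KRAB zinc finger proteins, by 0.39 ± 0.04 (5.42e-05) and the histone methyltransferase Nsd1 by 0.35 ± 0.04 (6.78e-05). In knock-out cells Trim28 and Prdm14 were the 2 of 14 that fell, where 4.18% of all tested genes did. Trim28 fell there by 0.32 ± 0.04 (adjusted p = 0.00145). Rest and Nsd1 had positive interactions of 0.52 ± 0.05 and 0.32 ± 0.05 (adjusted p = 0.000104 and 0.00446). Zfp57, which protects imprinted methylation, rose by 0.14 ± 0.04 in parental cells (adjusted p = 0.0213), a call lost without parental DMSO library 1 (0.084), parental DMSO library 2 (0.156) or parental CHIR99021 library 1 (0.134).

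Of 12 tested partners and cofactor genes of the Tet enzymes, 6 fell and none rose with CHIR99021 in parental cells, with a median of -0.15. Dppa2 and Dppa4, a DNA-binding pair that keeps a set of developmental promoters unmethylated, fell by 0.54 ± 0.04 and 0.46 ± 0.04 on the log2 scale (SE, adjusted p = 6.19e-06 and 1.59e-05). Qser1, which cooperates with Tet1 against methylation in human embryonic stem cells, fell by 0.43 ± 0.04 (5.38e-05), and Sall4, a zinc finger protein that binds Tet proteins, by 0.38 ± 0.05 (0.000269). In knock-out cells 3 of the 12 fell, where 4.18% of all tested genes did. Between the responses Dppa2 had an interaction of 0.42 ± 0.06 (adjusted p = 0.00154).

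The cofactor genes of the Tet list were at -0.14 ± 0.04 for Idh1 and -0.11 ± 0.05 for Idh2, the isocitrate dehydrogenases that make 2-oxoglutarate, in the same comparison (SE, adjusted p = 0.027 and 0.145). The call of Idh1 was lost with DESeq2 (0.0659) and without parental DMSO library 1 (0.144), parental DMSO library 2 (0.0833) or parental CHIR99021 library 1 (0.21). Ogt, a glycosyltransferase that binds Tet proteins, and Cxxc5, a CXXC-domain protein, were at -0.05 ± 0.04 and -0.05 ± 0.05 (adjusted p = 0.524 and 0.492). Cxxc4, of the same list, had 0 to 6 counts per library and was not tested. In DMSO 3 of the 12 were lower in the knock-out than in parental cells, where 3.62% of all tested genes were. Qser1, Sall4 and Slc23a2 lie in the stretch of chromosome 2 described above, and among the other genes of the list 1 was lower.

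Base excision repair genes, which act after Tdg, gave 2 higher and 2 lower of 14 in parental cells with CHIR99021, with a median of 0.01, counts near the 9.10% higher and 10.3% lower of all tested genes. Gadd45a, a stress protein linked to active demethylation, fell by 0.62 ± 0.07 on the log2 scale (SE, adjusted p = 8.32e-05), and the glycosylase Smug1 rose by 0.34 ± 0.06 (0.00365). Readers of methylated DNA gave 1 lower of 9, Zbtb38 at -0.22 ± 0.06 (adjusted p = 0.0278), a call that was lost with DESeq2 (0.171) and without any 1 of the 4 parental libraries (0.0619 to 0.153).

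Genes of methyl group supply gave 4 higher and 3 lower of 18 in parental cells with CHIR99021, with a median of 0.00. Tdh, the threonine dehydrogenase that feeds S-adenosylmethionine synthesis in mouse embryonic stem cells, had 661 and 654 CPM in knock-out cells with CHIR99021, 749 and 707 CPM in knock-out cells with DMSO, 1419 and 1423 CPM in parental cells with CHIR99021, and 938 and 930.2 CPM in parental cells with DMSO. It rose by 0.61 ± 0.04 in parental cells (log2, SE, adjusted p = 8e-07), with an interaction of -0.75 ± 0.05 (adjusted p = 8.92e-06). Mat2a, which makes S-adenosylmethionine, fell by 0.28 ± 0.04 in parental cells (adjusted p = 0.000454). Ahcy, which removes its product, was at -0.22 ± 0.12 (adjusted p = 0.239); it has near-identical copies among which the counting could split reads.

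Germline genes known to be kept silent by promoter methylation summed to 123 to 142 CPM over 15 genes in every library. With CHIR99021 in parental cells 2 of 14 rose and none fell, with a median of 0.06. Tex19.1 had 25.0 and 23.4 CPM in knock-out cells with CHIR99021, 29.4 and 28.9 CPM in knock-out cells with DMSO, 28.7 and 27.4 CPM in parental cells with CHIR99021, and 20.3 and 20.1 CPM in parental cells with DMSO. Parental cells with DMSO were its low group, with log2 fold changes of 0.47 ± 0.06 for CHIR99021 in parental cells and 0.53 ± 0.06 for knock-out against parental cells in DMSO (SE, adjusted p = 0.000349 and 0.000938). Dazl, a germ cell RNA-binding protein, was at 0.26 ± 0.17 and 0.53 ± 0.16 in these comparisons (adjusted p = 0.327 and 0.08). Tex19.1 has a near-identical neighbouring gene, so its counts are uncertain. In DMSO the knock-out had 1 germline gene higher and 1 lower of 14, where 3.13% and 3.62% of all tested genes were called. The median was 0.37 beside 0.003 over all genes, but genes lay on both sides. Sycp1 averaged 4.97 CPM in knock-out and 3.74 CPM in parental cells, and Stk31 10.7 and 13.3 CPM. The sum of the list was 126.8 and 134.1 CPM in knock-out and 126.3 and 122.8 CPM in parental cells with DMSO. Dppa3, which keeps Uhrf1 off chromatin in the oocyte, had 5 to 31 counts per library and was at -1.37 ± 0.49 with CHIR99021 in parental cells (adjusted p = 0.0765).

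Summed levels of markers of other cell types also differed between the groups. The 6 mesoderm markers summed to 2.86 to 3.99 CPM in the 4 knock-out libraries. In parental cells they summed to 44.5 and 42.7 CPM with CHIR99021 and 3.22 and 3.44 CPM with DMSO, with 1 of them at 0 in every library. Of the 4 that could be tested, 2 were called higher with CHIR99021 in parental cells and none lower. There T averaged 11.3 CPM with CHIR99021 and 0.340 CPM with DMSO, and Eomes 30.4 and 1.48 CPM. Mixl1 averaged 1.14 and 0.989 CPM and Tbx6 0.679 and 0.506 CPM. The 5 neural markers summed to 81.8 and 83.6 CPM in knock-out cells with CHIR99021 and 107 and 99.4 CPM with DMSO. In parental cells they summed to 48.3 and 49.2 CPM with CHIR99021 and 101 and 103 CPM with DMSO. All 4 that could be tested were called lower with CHIR99021 in parental cells, where 10.3% of all tested genes were. In knock-out cells 3 were lower, where 4.18% of all tested genes were. Tubb3 made up much of the sum, averaging 33.7 CPM with CHIR99021 and 73.8 CPM with DMSO in parental cells. Primitive endoderm markers, 7 in number, summed to 28.4 to 31.6 CPM in the knock-out line, 13.4 and 14.9 CPM in parental cells with CHIR99021 and 22.6 and 23.2 CPM in parental cells with DMSO. Of the 5 that could be tested, 1 was lower and 1 higher with CHIR99021 in parental cells: Sox7 had 4.14 and 5.35 CPM with CHIR99021 and 14.3 and 13.9 CPM with DMSO, and Pdgfra averaged 1.97 ± 0.246 CPM with CHIR99021 and 1.10 ± 0.206 CPM with DMSO (SD, n = 2 each). Gata4, a defining factor of that lineage, had 4.37 and 5.10 CPM with CHIR99021 and 4.21 and 5.81 CPM with DMSO in parental cells. In the knock-out line Gata4 had 11.5 and 10.9 CPM with CHIR99021 and 10.2 and 10.9 CPM with DMSO. Between the lines 3 of the 5 were higher in the knock-out and none lower, both with CHIR99021 and with DMSO. Their median log2 fold change was 0.96 in each, where 11.2% and 3.13% of all tested genes were called higher. The 6 trophoblast markers summed to 19.9 to 35.6 CPM and the 7 fibroblast markers to 10.3 to 23.0 CPM, both sums highest in parental cells with CHIR99021. Single genes made up much of that rise: in parental cells Krt8 averaged 28.5 CPM with CHIR99021 and 15.9 CPM with DMSO, and Pdgfrb 13.3 and 4.74 CPM. In each list 2 of 4 tested markers were called higher there and none lower. The fibroblast marker Thy1 was highest in knock-out cells with CHIR99021, at a mean of 7.87 CPM against 6.07 CPM in parental cells with CHIR99021. The part of such cells in the levels of the methylation genes was not tested.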

How the data were processed

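Polyadenylated RNA of 8 libraries, 2 per group, was sequenced from TruSeq Stranded mRNA libraries, per the labels' protocols. The authors deposited expected counts, the estimated reads per gene of kallisto with build GRCm38.p4, per the submitters' processing notes, not normalised; 36.9% to 38.4% of a library's entries were not whole. The kallisto version, transcript set and strand setting are not given in the sources used here. Columns were matched to libraries by title.

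Counts were rounded and genes kept with filterByExpr (10 counts, 15 in total), which left 17739 genes with 99.9% of the counts. edgeR 4.0.16 (R 4.3.3) scaled libraries by trimmed means of M values (factors 0.9857 to 1.0182) and all 8 libraries entered a quasi-likelihood fit of 4 group means, with 4 residual degrees of freedom. The common biological coefficient of variation was 0.0532. The 5 comparisons used 2-sided quasi-likelihood F tests with Benjamini-Hochberg adjustment over all 17739 genes, called at an adjusted p of 0.05. Every adjusted p in the text is from that fit unless another tool, filter, choice of groups or left-out library is named. Intervals and SE come from the fit. Totals of 23650572 to 27680649 counts set the precision.

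The members and gene lists were chosen with earlier results of these data known. Named were the 9 members, up to 4 genes called with the smallest adjusted p per list and comparison, of which the text gives examples, 15 fixed regulators, the check genes Ctnnb1 and Axin2, and the 3 genes most alike to a member by Pearson's r of log2 CPM (prior count 2). Lists covered maintenance partners, target-site factors, Tet partners, base excision repair, methyl readers, methyl supply, germline genes, S phase and markers of 6 cell types. Gene positions and lengths came from GENCODE M21, promoters from RefSeq.

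Alternatives were DESeq2 1.42.0, limma-voom 3.58.1, relative log expression size factors, no filter, a stricter filter (5 CPM in 2 libraries), the replicate number as a block, the compared groups alone, each library left out, other length and total scalings and, chosen after seeing the data, values relative to genes within 5 Mb.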

Additional observations from a re-analysis of the deposited data

Results flagged for a closer look

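The response to CHIR99021 differed between knock-out and parental cells for 5 of the 9 genes by the interaction test (edgeR's quasi-likelihood test, Benjamini-Hochberg adjustment), where 6.13% of all tested genes passed. For Dnmt3a the interaction was 0.73 on the log2 scale (adjusted p = 8.68e-05), for Tet1 0.47 (0.000357), for Tet3 0.48 (0.0181) and for Dnmt3l 0.42 (0.00437). Each was positive because the log2 fold change was less negative in knock-out than in parental cells. For Dnmt3b the interaction was -0.43 (0.00751), with libraries on opposite sides: CHIR99021 below DMSO in both knock-out libraries and above it in both parental libraries. All 4 genes with a positive value were at their lowest in parental cells with CHIR99021, a group that enters each of these tests. The cause of the differences was not tested.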

How the results depend on the processing

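Under the alternative fits 623 log2 fold changes of the members kept their direction and their side of the threshold, 19 lost a call, 11 gained one and 13, none of them called, changed sign. All calls of Dnmt3a and Tet1 held under each alternative fit run, as did the parental and between-line calls of Dnmt3l and the parental call of Tet3. In the knock-out response 4 members passed with no filter, against 2, and 1 to 4 when 1 library was left out: 1 without knock-out DMSO library 1 or either knock-out CHIR99021 library, and 4 without knock-out DMSO library 2. With the stricter filter Tet3 in the knock-out response, Pcna in the parental response and Dnmt1 in the interaction stood at 0.00, and Tet2 between the lines in DMSO at 0.01. With 1 library left out the knock-out response ran from -0.08 to 0.00 for Tet1, -0.02 to 0.09 for Tet2, -0.05 to 0.02 for Tet3 and -0.24 to 0.19 for Ctnnb1, the parental response from -0.03 to 0.01 for Tdg and -0.01 to 0.01 for Pcna, Tet2 between the lines in DMSO from -0.06 to 0.05, and the interaction from -0.04 to 0.03 for Dnmt1 and -0.13 to 0.30 for Ctnnb1. Dnmt3b between the lines with CHIR99021 was -0.26 as fitted and 0.01 relative to the genes within 5 Mb, a scaling chosen after seeing the data; on that scale Uhrf1 was at -0.28 (-0.36 as fitted) and Tet3 at 0.64 (0.55 as fitted). The cause of these shifts was not tested.

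Over all genes, DESeq2 called 2208 in the parental response to CHIR99021, against 3441, 795 between the lines in DMSO, against 1198, and 2709 with CHIR99021, against 4200. With no filter 2167 passed in the knock-out response, against 1252, 2063 between the lines in DMSO, against 1198, and 1989 in the interaction, against 1087. With 1 library left out 307 to 1237 passed in the knock-out response, 2057 to 3507 in the parental response, 357 to 1047 between the lines in DMSO, 2509 to 4353 with CHIR99021 and 605 to 1143 in the interaction. A lone library of a group is then assumed to vary like the others. The replicate numbers name libraries and were not shown to pair them: deviations of same-numbered libraries from their group means correlated at -0.056 to 0.104 over 17739 genes. With the replicate number as a block 2, 5, 7, 3 and 5 members passed in the knock-out response, the parental response, between the lines with CHIR99021, between the lines in DMSO and in the interaction, as without it, and 1313, 3434, 4296, 1225 and 1135 of all genes. DESeq2 gave no adjusted p for 2 listed genes, which were left out. Depth limits mainly Tet3, with 323 to 550 counts per library.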
